A study of Solanum lycopersicum with 18 samples.

Results

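Temperature-induced lipocalins, ASR proteins and dehydrins are small stress proteins of plants. Described here are 7 of the 23348 genes in the table of tomato leaf transcripts. All belong to these families except LE25, which encodes a late embryogenesis abundant protein of another kind. The 7 were chosen by gene identifier (TIL, TIL' and Asr4) or by symbol (ASR1, ASR3, TAS14 and LE25). Other genes of these families, such as the dehydrin gene dhn, lie outside this choice. The further symbols that the rule allowed, LE4 and CI7, matched no gene. RNA sequencing covered leaves of the dwarf tomato cultivar Micro-TOM (MT) and of a second material named Micro-TOM-EX (EX), a suffix that the labels leave without explanation. Both were grown in soil in a greenhouse with 16 h of light, and leaves were taken at 0, 4 and 12 h, with 3 libraries for each of the 6 combinations of line and time and 18 in all. The title of the study speaks of cold stress and the growth protocol gives both materials 0, 4 or 12 h of it, whereas the stress label calls all MT libraries control and all EX libraries cold, those of 0 h included. If the stress label holds, MT is an untreated time course. Under both readings time of day may have moved with the hours and cannot be told apart from them, and no temperature is stated.

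Lipocalins are small proteins that fold into a barrel able to hold a hydrophobic molecule. Those called temperature-induced were described in wheat and Arabidopsis as membrane-associated proteins whose transcripts rise in cold and heat, and Arabidopsis plants without the protein are sensitive to temperature extremes and oxidative damage. ASR proteins, named after abscisic acid, stress and ripening, are small hydrophilic proteins first found in tomato, where ASR1 was isolated from ripe fruit and water-stressed leaves. They bind zinc and DNA and can protect other proteins from drying. Dehydrins such as TAS14 and other late embryogenesis abundant (LEA) proteins such as LE25 are hydrophilic proteins of seeds and of drying tissues. Abscisic acid, the hormone of drought, salt and cold, switches on ASR, TAS14 and LE25 transcripts in tomato.

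The deposited values are FPKM, fragments scaled to transcript length and library depth, so levels of different genes can be set beside each other. Depth, estimated from the steps between low values, was 16300000 to 18200000 fragments per library. The first libraries of MT at 0 h (61.9) and 4 h (52.6) stood apart on the second principal component of all genes, which held 18.4% of the variance, from the other libraries at -40.7 to 14.3. The 20 leaf mesophyll markers summed to 38538 to 104156 FPKM per library, the 3 pollen markers to 0.08 to 2.5, the 1 seed storage gene to 0.15 to 4.02, and the 6 fruit ripening markers to 23.7 to 92.2. Among the ripening markers, Psy1 had group means of 2.32 and 2.38 FPKM at 0 h and 33.6 to 54.4 later. Among the pollen markers, LAT56 had group means of 0.207 and 0.18 FPKM at 0 h and 1.16 to 2.17 later. The 5 root markers summed to 29.6 to 162.0 FPKM and the 6 wounding genes to 152.6 to 437.8. Changes were tested with limma on log2(FPKM + 1) over the 17870 genes that reached a group mean of 1 FPKM anywhere, and an adjusted p under 0.05 counted as a call. Fold changes on this scale understate the change of low genes. Of the 7 members 6 were tested and ASR3 was too low. Whether libraries of 1 group are separate plants is not stated in the labels, so the p-values cover the spread between these libraries alone, and that may be technical. In whole leaves, fewer cells of a type and less RNA per cell cannot be told apart.

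Levels differed widely among the members. Asr4 was the most abundant, with a mean of 987.7 FPKM over the 18 libraries, rank 90 of all 23348 genes. ASR1 averaged 106.1 FPKM (rank 1159), TIL 54.2 (rank 2432), TAS14 31.7 (rank 4080) and TIL' 30.4 (rank 4261). LE25 averaged 0.893 FPKM and ASR3 0.218, ranks 17157 and 19383. TAS14 and TIL' cannot be ordered, since TAS14 ranged from 2.99 to 231.4 FPKM and TIL' from 16.0 to 56.1.

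The genes lie at 5 places. ASR3 (58552142 to 58553321), ASR1 (58578758 to 58580136) and Asr4 (58585733 to 58586737) sit on the plus strand of chromosome 4 within 34.6 kb, with 1 other gene between ASR3 and ASR1, LOC101247814, which averaged 0.603 FPKM. TIL is on chromosome 12 (3377663 to 3380422, plus strand), TIL' on chromosome 7 (202540 to 203356, minus strand), TAS14 on chromosome 2 (47925826 to 47926789, minus strand) and LE25 on chromosome 10 (60481791 to 60482819, minus strand). Positions are as deposited, on a genome build that is not named. No member overlapped another gene, and each had 1 transcript, of 522 to 894 bases. TIL and TIL' share a transcript length of 558 bases, but TIL spans 2760 bases of the chromosome and TIL' 817. Reads of near-identical relatives within a family could have been split between copies, so the separate levels of ASR1, ASR3 and Asr4, and of TIL and TIL', are uncertain to that extent.

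The 2 lipocalin transcripts moved in opposite directions with time, and did so in both lines. TIL rose from 0 h to 4 h and stayed up at 12 h, while TIL' fell over the same hours. At 0 h TIL read 46.4, 50.2 and 36.9 FPKM in MT and 40.8, 40.3 and 40.9 in EX. At 4 h it read 60.1, 62.5 and 63.9 FPKM in MT and 57.7, 52.2 and 54.8 in EX. At 12 h it read 61.9, 67.8 and 67.3 FPKM in MT and 52.3, 56.0 and 64.2 in EX. All 12 libraries of 4 h and 12 h lay above all 6 libraries of 0 h. Set against 0 h of the same line, 10.7% of tested genes were without overlap and higher in MT after 4 h, 13.2% in MT after 12 h, 18.9% in EX after 4 h and 20.4% in EX after 12 h.

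For TIL' the 0 h libraries were the high ones. They read 37.0, 42.0 and 41.5 FPKM in MT and 56.1, 33.8 and 47.9 in EX. At 4 h TIL' read 22.7, 22.7 and 16.0 FPKM in MT and 23.0, 33.4 and 25.2 in EX. At 12 h it read 24.5, 27.7 and 21.6 FPKM in MT and 24.3, 26.6 and 21.7 in EX. Again no library of 4 h or 12 h overlapped those of 0 h of the same line, the closest being library 2 of EX at 4 h (33.4) and library 2 of EX at 0 h (33.8). Such a fall without overlap was seen in 11.6% of tested genes in MT after 4 h, 20.6% in MT after 12 h, 16.6% in EX after 4 h and 16.1% in EX after 12 h.

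**Figure D1:**
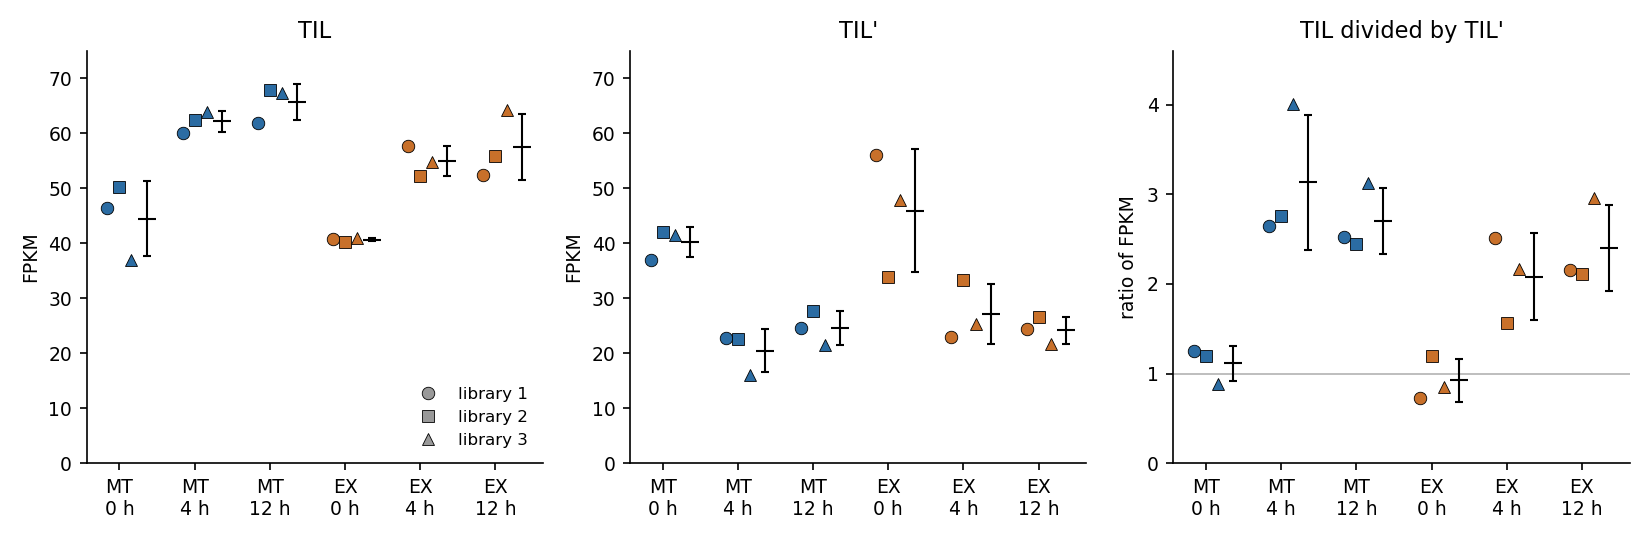
FPKM of TIL (left) and TIL' (middle) and the ratio of both (right) in each of 18 libraries, by line (MT blue, EX orange) and time; marker shapes give the library number, and the bar beside each group is the mean with its SD (n = 3). TIL lies at 36.9 to 50.2 FPKM at 0 h and 52.2 to 67.8 later, TIL' at 33.8 to 56.1 and 16.0 to 33.4, so the ratio lies near 1 at 0 h and between 1.56 and 4.00 later.

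In MT at 4 h, TIL had risen from 44.5 ± 6.89 to 62.1 ± 1.89 FPKM (mean ± SD of 3 libraries each; log2 0.48, SE 0.11, limma adjusted p = 0.0105) and TIL' had fallen from 40.2 ± 2.76 to 20.4 ± 3.89 (log2 -0.96, SE 0.19, limma adjusted p = 0.00321). These were the 2 members called of 6 tested, where 14.2% of all tested genes were called, 6.73% higher and 7.43% lower. At 12 h TIL stood at 65.7 ± 3.3 FPKM (log2 0.56, limma adjusted p = 0.0033) and TIL' at 24.6 ± 3.06 (log2 -0.69, limma adjusted p = 0.0183), again the 2 members called, where 21.2% of all genes were called (8% higher, 13.2% lower).

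In EX the same genes were called in the same directions. TIL rose from 40.7 ± 0.339 FPKM to 54.9 ± 2.75 at 4 h (log2 0.42, limma adjusted p = 0.0259) and 57.5 ± 6.05 at 12 h (log2 0.48, limma adjusted p = 0.00949). TIL' fell from 45.9 ± 11.3 to 27.2 ± 5.47 FPKM at 4 h (log2 -0.72, limma adjusted p = 0.0211) and 24.2 ± 2.45 at 12 h (log2 -0.87, limma adjusted p = 0.00557). Over all genes 11.3% were called in EX at 4 h (6.3% higher, 4.99% lower) and 16.6% at 12 h (10.1% higher, 6.54% lower). The comparisons of a line share their 0 h libraries.

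The calls were close to the threshold in places. With any 1 of the 6 libraries left out, TIL in EX at 4 h lost its call (adjusted p from 0.0545 to 0.102). TIL' in EX at 4 h lost it without library 1 or 3 of either time (0.074 to 0.121). TIL' in MT at 12 h lost it without library 3 of MT at 0 h (0.054) or library 1 or 3 of MT at 12 h (0.053 and 0.0679). TIL lost its call in MT at 4 h without library 3 of MT at 0 h (0.0525) and in EX at 12 h without library 3 of EX at 12 h (0.0584). TIL' in MT at 4 h, TIL' in EX at 12 h and TIL in MT at 12 h kept theirs with any 1 library left out. In limma fits on the compared groups alone TIL (0.235) and TIL' (0.0529) in MT at 4 h, TIL in MT at 12 h (0.0702) and TIL' in EX at 4 h (0.0821) were not called. Without the first libraries of MT at 0 h and 4 h, which stood apart, all 8 calls of the lipocalins remained.

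The ratio of TIL to TIL' put these changes into 1 number per library, and it is given as a description only. At 0 h it was 1.11 ± 0.197 in MT and 0.924 ± 0.239 in EX (SD, n = 3 each). It was 3.13 ± 0.752 in MT and 2.08 ± 0.48 in EX at 4 h, and 2.7 ± 0.369 and 2.4 ± 0.479 at 12 h. Across the 6 libraries of 0 h it lay between 0.727 and 1.25, and across the 12 later ones between 1.56 and 4.00. The sum of both transcripts covered about the same range at both stages, 74.1 to 96.9 FPKM at 0 h and 76.7 to 95.5 FPKM later.

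Between the lines no difference in either lipocalin was called at any time. At 4 h all 3 EX libraries lay above all 3 MT libraries for TIL' (log2 0.39, 95% interval -0.01 to 0.80, limma adjusted p = 0.366) and below them for TIL (log2 -0.18, interval -0.42 to 0.07, limma adjusted p = 0.49). Of all tested genes 7.3% had such an arrangement upwards and 14.8% downwards in that comparison. The groups overlapped at 0 h, where EX minus MT was log2 0.16 for TIL' (interval -0.24 to 0.57) and -0.12 for TIL (interval -0.36 to 0.13). They overlapped at 12 h as well, with log2 -0.02 for TIL' (interval -0.42 to 0.38) and -0.19 for TIL (interval -0.44 to 0.05). The change from 0 h was not shown to differ between the lines either. For TIL the line-by-time term was log2 -0.06 at 4 h (interval -0.41 to 0.28, limma adjusted p = 0.978) and -0.08 at 12 h (interval -0.42 to 0.27, limma adjusted p = 0.824). For TIL' it was log2 0.23 at 4 h (interval -0.34 to 0.80, limma adjusted p = 0.937) and -0.18 at 12 h (interval -0.75 to 0.39, limma adjusted p = 0.742). From 4 h to 12 h TIL differed by log2 0.08 in MT and 0.06 in EX, and TIL' by 0.27 and -0.15, none of them called.

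**Figure D2:**
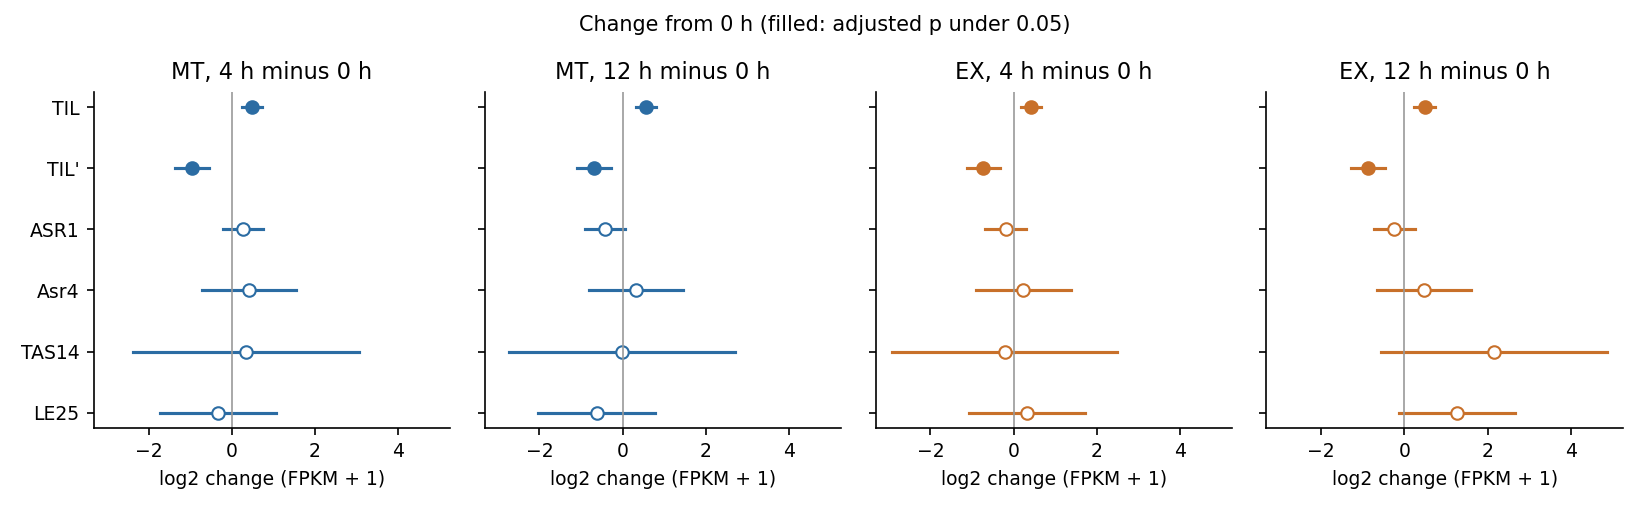
Log2 change of FPKM + 1 from 0 h to 4 h and 12 h in MT (blue) and EX (orange) for the 6 tested members; points are limma estimates with 95% intervals, filled where the adjusted p was under 0.05. TIL lies right of 0 and TIL' left of 0 in all 4 panels, whereas the intervals of ASR1, Asr4 and TAS14 all include 0, those of TAS14 being the widest. LE25 is drawn as a description only. It passed the filter only through EX at 12 h, so its intervals are not read against 0.

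For Asr4 and ASR1 no change with time was called, which does not show that their course differed from those of the lipocalins. ASR3 was not tested. Asr4, the most abundant member, was at 970.0, 715.2 and 538.6 FPKM in MT at 0 h and at 884.7, 1763 and 336.4 in EX at 0 h. At 4 h it read 1711, 727.0 and 720.03 FPKM in MT and 930.2, 852.3 and 1084 in EX. At 12 h it read 963.6, 1469 and 517.8 FPKM in MT and 1839, 925.4 and 829.7 in EX. The 6 groups overlapped throughout, and within EX at 0 h alone the highest library was 5.24 times the lowest.

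Asr4 was called in none of the 11 comparisons by limma (adjusted p from 0.595 to 1). Its change from 0 h was log2 0.42 at 4 h and 0.32 at 12 h in MT, and 0.24 and 0.48 in EX. The interval of the change in EX at 12 h ran from -0.66 to 1.61, which leaves both its size and its direction undetermined at this spread between libraries. EX minus MT was log2 0.16 at 0 h (interval -0.97 to 1.30), -0.02 at 4 h (interval -1.15 to 1.11) and 0.31 at 12 h (interval -0.82 to 1.45).

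ASR1, the founding member of the family, was steadier. It read 110.9, 94.4 and 82.8 FPKM in MT at 0 h, then 164.3, 98.0 and 94.5 after 4 h, then 63.9, 74.7 and 74.7 after 12 h. In EX it read 101.3, 186.8 and 107.4 FPKM at 0 h, then 108.5, 102.7 and 122.2 after 4 h, then 115.6, 111.2 and 95.7 after 12 h. The lowest 3 libraries of all 18 were those of MT at 12 h.

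At that time the lines did not overlap for ASR1, with 107.5 ± 10.4 FPKM in EX beside 71.1 ± 6.23 in MT (mean ± SD of 3 libraries; log2 0.59, SE 0.23, interval 0.10 to 1.08), but the difference was not called (limma adjusted p = 1). Its unadjusted limma p was 0.0209, the 1 member under 0.05 in a comparison where 599 of 17870 tested genes were under it. In that comparison 6.88% of tested genes lay fully higher and 5.37% fully lower in EX. ASR1 in MT at 12 h also lay below all libraries of MT at 4 h (log2 -0.69, limma adjusted p = 0.219) and of MT at 0 h (log2 -0.42, limma adjusted p = 0.204). The share of all genes with such a downward arrangement was 11.4% against 4 h and 20.6% against 0 h. None of the 11 comparisons called ASR1 by limma.

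In each library Asr4 stood above ASR1, by 3.13 to 19.7 times. ASR3 was near the detection limit. It was listed at 0 in 6 of 18 libraries and reached 0.9 FPKM in library 2 of EX at 12 h, an estimated 9 fragments. It failed the filter on low values in every group, and no comparison of it was made.

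TAS14, the dehydrin of the set, varied between libraries of 1 group by 2.05 (EX at 4 h) to 28.6 times (MT at 4 h). In MT it read 55.3, 4.54 and 2.99 FPKM at 0 h, then 93.1, 3.26 and 5.37 after 4 h, then 6, 34.1 and 3.85 after 12 h. In EX it read 17.4, 22.9 and 3.2 FPKM at 0 h, then 8.42, 7.08 and 14.5 after 4 h, then 42.9, 231.4 and 15.0 after 12 h. A single library was high in each MT group, by 5.67 times over the next one at 12 h and more at the other times. The low and high libraries of MT at 4 h correspond to an estimated 33, 59 and 994 fragments.

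LE25 was mostly at or near 0. It was listed at 0 in 8 of 18 libraries. Its highest value, 10.1 FPKM or an estimated 70 fragments, was in library 2 of EX at 12 h, the library with the highest TAS14. The next were 2.34 FPKM in library 1 of MT at 0 h and 1.1 in library 1 of MT at 4 h, an estimated 16 and 8 fragments, which are the libraries with the next highest TAS14 values. LE25 passed the filter only through EX at 12 h, where its mean was 3.58 ± 5.66 FPKM (SD, n = 3). Since that group had to be the high one, no test of LE25 is given.

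TAS14 was called in none of the 11 comparisons by limma. Its largest differences involved EX at 12 h. It stood there at 96.4 ± 117.7 FPKM against 14.6 ± 16.8 in MT at 12 h (SD, n = 3 each; log2 2.37, interval -0.35 to 5.08, limma adjusted p = 1), and against 14.5 ± 10.2 in EX at 0 h (log2 2.15, limma adjusted p = 0.278). All 3 libraries of EX at 12 h lay above those of EX at 4 h, by a margin of 14.95 over 14.51 FPKM (log2 2.37, limma adjusted p = 0.812), where 12.1% of tested genes lay fully higher. Without library 2 of EX at 12 h the log2 differences fell to 1.32, 1.11 and 1.32 in the order given.

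**Figure D3:**
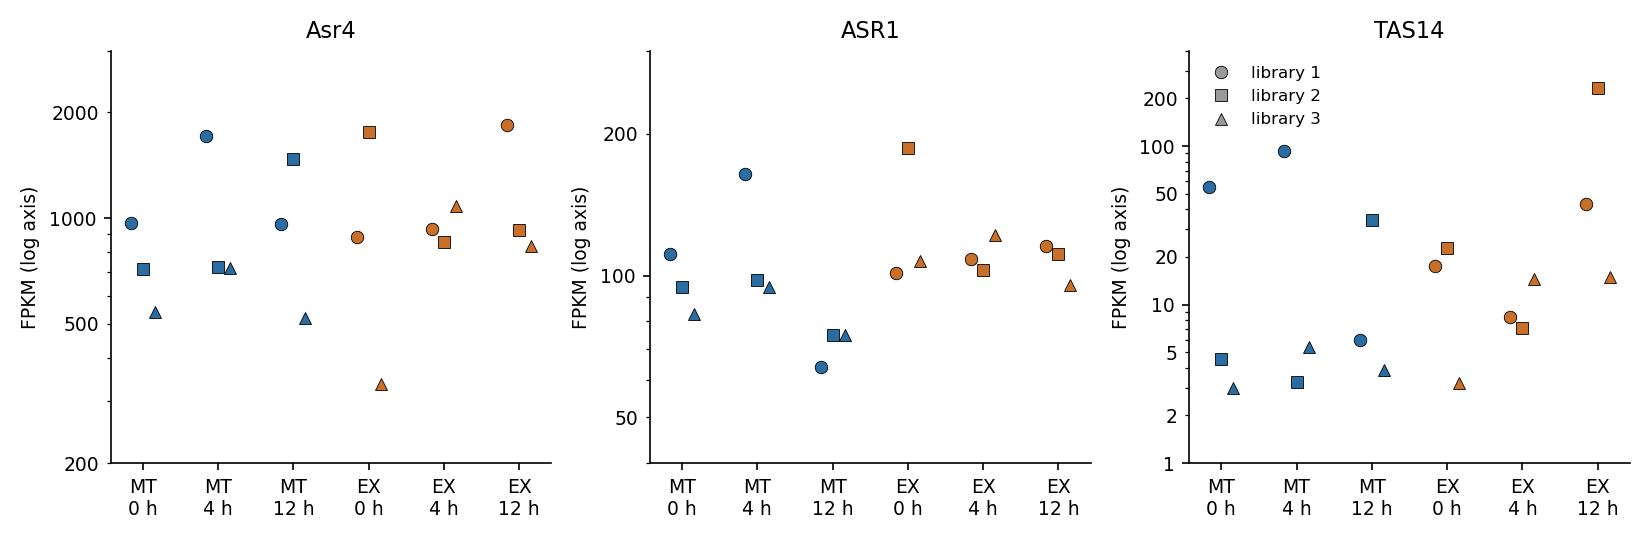
FPKM (log axis) of Asr4 (left), ASR1 (middle) and TAS14 (right) in each library, by line (MT blue, EX orange) and time; marker shapes give the library number. Single libraries stand high in several groups, and mostly the same library in all 3 panels, such as library 1 of MT at 4 h with 1711, 164.3 and 93.1 FPKM.

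The spread between libraries thus set the members apart from each other. The SD within groups was 0.119 log2 units for TIL, lower than in all but 5.24% of the tested genes, and 0.239 for TIL', which is the median of all tested genes. It was 0.296 for ASR1, 0.721 for Asr4 (percentile 96.2) and 1.75 for TAS14 (percentile 99.98). Among tested genes of similar mean level the percentiles were 8.69 for TIL, 59.6 for TIL', 68.9 for ASR1 and 99.95 for TAS14. That of Asr4 was 92.7, among only 55 genes. With 3 libraries a group, this spread limits what could be called for Asr4 and TAS14. LE25 had an SD of 0.892, but the group that brought it past the filter, EX at 12 h, holds its 1 library of 10.1 FPKM. Its place among the tested genes is therefore not read.

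High libraries of these genes were shared in part. The library of a group with the highest TAS14 was also the one with the highest Asr4 in 5 of 6 groups, with the highest ASR1 in 4, and with the highest LE25 in 4, with a tie in another. It was the highest for TIL in 1 group and for TIL' in 3. For LE25 in MT at 12 h this rests on 0.14 FPKM, an estimated 1 fragment, beside 0 in the others. The share of all tested genes with such agreement was not computed, so these counts are a description. Over the 18 libraries, deviations from the group means of TAS14 and Asr4 correlated at Pearson r = 0.69 (exact permutation p = 0.00956 within groups, adjusted p = 0.0478) and Spearman rho = 0.79 (p = 0.0048, adjusted p = 0.036). Those of TAS14 and ASR1 correlated at r = 0.69 (exact permutation p = 0.00787, adjusted p = 0.0478) and rho = 0.64 (p = 0.0217, adjusted p = 0.0815), and those of ASR1 and Asr4 at r = 0.72 (exact permutation p = 0.0178, adjusted p = 0.0666) and rho = 0.67 (p = 0.0155, adjusted p = 0.0777). All tests were two-sided over 46656 relabellings, and p-values were adjusted over the 15 pairs of members. For LE25, given as a description only, r was 0.77 with TAS14, 0.39 with ASR1 and 0.20 with Asr4.

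Without the 2 libraries farthest from the median of Asr4 (first pair) or of ASR1 (the others), r was 0.69 for TAS14 and Asr4, 0.61 for TAS14 and ASR1, and 0.52 for ASR1 and Asr4. Without the first libraries of MT at 0 h and 4 h, which stood apart over all genes and are among the 3 highest for TAS14, they were 0.60, 0.43 and 0.63 in this order. Those of LE25 were then 0.72 with TAS14, 0.17 with ASR1 and -0.0018 with Asr4. In the 9 pairs with TIL or TIL' r lay between -0.29 and 0.26, with adjusted p from 0.352 to 0.987, and without the same libraries between -0.55 (TIL' and ASR1) and 0.31 (TIL' and LE25).

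Cell-type markers differed between these libraries too. In 6 of 6 groups the library with the highest TAS14 had the lowest sum of the 20 leaf mesophyll markers. It was 38538 FPKM in MT at 0 h, where the others had 66576 and 76048, and 39721 in MT at 4 h beside 56050 and 64407. In EX at 0 h it was 59564 beside 91453 and 104156. The gaps were smaller elsewhere, with 61409 beside 65599 and 71809 in MT at 12 h, 75973 beside 77691 and 84307 in EX at 4 h, and 57556 beside 60245 and 66876 in EX at 12 h. The same library had the highest level of the 1 seed storage gene in 5 groups, and the highest sum of the root markers in 4, of the wounding genes in 3, of the pollen markers in 3 and of the fruit ripening markers in 1. Of the root, pollen and fruit ripening markers, only PT1 and PT3, LAT56, and tEG3 and Psy1 reached a mean of 1 FPKM in any group. These sums thus rest on few genes. The seed storage gene had group means of 0.287 to 1.93 FPKM. The part of the marker differences in the values of TAS14, Asr4, ASR1 and LE25 was not tested.

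**Figure D4:**
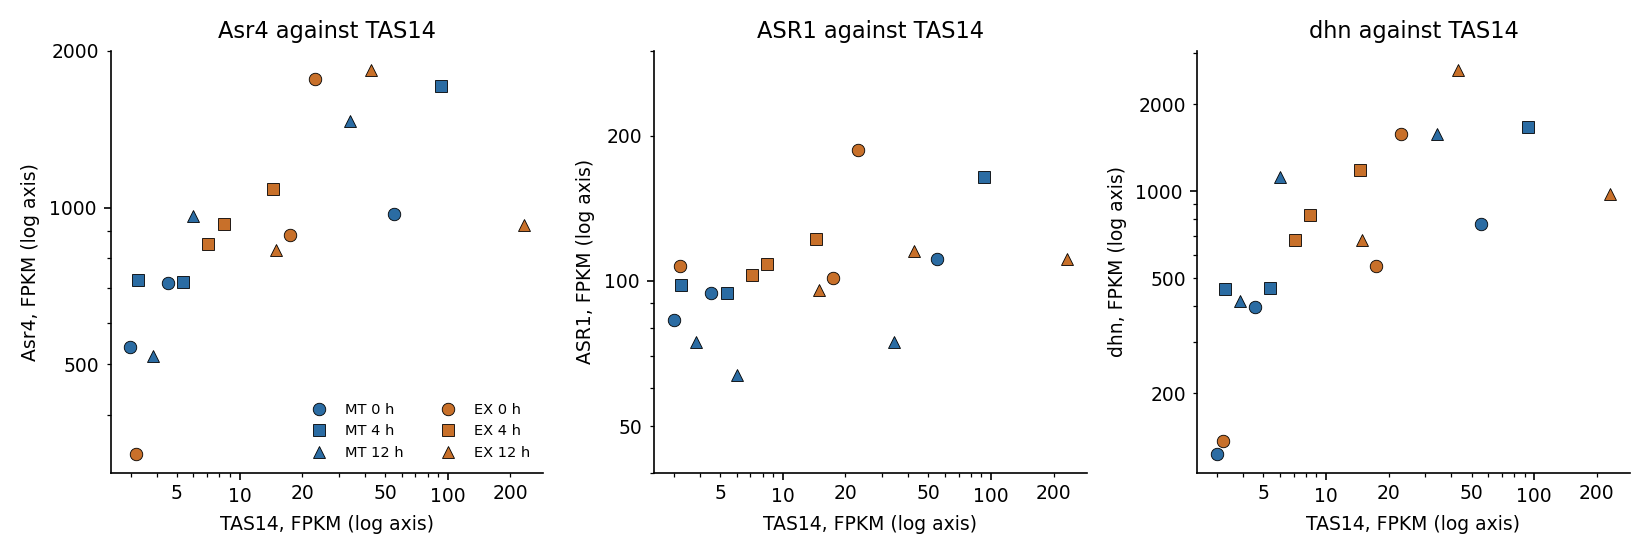
FPKM of Asr4 (left), ASR1 (middle) and the dehydrin gene dhn (right) against TAS14 in 18 libraries, on log axes; colours give the line (MT blue, EX orange) and shapes the time. Libraries low in TAS14, at 2.99 and 3.2 FPKM, are also the lowest in dhn (123.6 and 136.9 FPKM), and Asr4 and dhn are mostly higher to the right, library 2 of EX at 12 h (231.4 FPKM of TAS14) being an exception.

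The authors' deposited table gives small q-values for differences that the replicate test did not call. For Asr4 in MT at 12 h against 0 h, the authors' deposited table lists log2 0.41 and q = 2.70e-301, beside limma's adjusted p of 0.702. For TAS14 in MT at 4 h against 0 h, the authors' deposited table lists log2 0.73 and q = 8.58e-26, beside limma's adjusted p of 0.894, with 1 high library at 4 h and 1 at 0 h. For TIL and TIL' the directions in the authors' deposited table are those found here, with log2 0.48 and -0.98 in MT at 4 h and 0.44 and -0.74 in EX at 4 h. For other members some directions differed, but limma compares means of log2(FPKM + 1), which need not order groups as mean FPKM does. TAS14 in EX against MT at 0 h has log2 -0.53 in the authors' deposited table, beside 0.19 in the limma fit. Its mean FPKM was 14.5 in EX and 20.9 in MT, where library 1 read 55.3. Asr4 in EX at 4 h against 0 h has log2 -0.035 in the authors' deposited table, beside 0.24 in the limma fit. Its mean FPKM was 955.6 at 4 h and 994.8 at 0 h. In both cases the deposited sign is that of the mean FPKM. Between the lines, the authors' deposited table lists q = 1.33e-06 for TIL' at 4 h (log2 0.43). For ASR1 at 12 h it lists q = 1.01e-51 (log2 0.60). Neither was called here. How replicates entered those q-values is unstated in the sources used here.

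Genes whose course was most like that of a member were found by Pearson r over the 18 libraries on log2(FPKM + 1), among 1548 other tested genes with a symbol. For TIL they were TLOG1, of the LOG family of cytokinin-activating enzymes (r = 0.90), CO1, of the CONSTANS family (r = 0.87), and IAA5, of the Aux/IAA auxin response family (r = 0.87). For TIL' they were SlCKX1, a cytokinin oxidase gene (r = 0.86), ERF-B5, an ethylene response factor gene (r = 0.85), and GH3-1, of the auxin-conjugating GH3 family (r = 0.84). For Asr4 they were LTC (r = 0.94), PLDa1, a phospholipase D gene (r = 0.94), and dhn, a dehydrin gene (r = 0.93). These values describe libraries that share 6 groups and their handling, and for TIL and TIL' mainly the step from 0 h to later times. TIL and TIL' themselves correlated at r = -0.84 over the 18 libraries.

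The dehydrin dhn, on chromosome 4 like the ASR genes but at 65957607 to 65958844, was named for its likeness to Asr4 over these libraries, so its values are a description. It read 769.1, 396.4 and 123.6 FPKM in MT at 0 h, then 1664, 457.1 and 462.8 after 4 h, then 1115, 1578 and 417.9 after 12 h. In EX it read 552.9, 1576 and 136.9 FPKM at 0 h, then 827.4, 676.4 and 1180 after 4 h, then 2625, 978.9 and 677.3 after 12 h. Its mean was higher at 4 h and 12 h than at 0 h in both lines, by log2 0.82 to 1.43, but limma called none of these differences (adjusted p from 0.251 to 0.64).

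Other LEA and desiccation-related genes matched by symbol numbered 11, of which 10 were tested, dhn among them. ELIP, an early light-induced protein gene of the chloroplast, was the 1 gene of the list called, at 4 h in each line, where 14.2% (MT) and 11.3% (EX) of all tested genes were called. It rose at 4 h from 0.75 ± 0.527 to 3.04 ± 2.06 FPKM in MT (log2 1.13, limma adjusted p = 0.0323) and from 0.387 ± 0.085 to 2.46 ± 1.19 in EX (log2 1.26, limma adjusted p = 0.021). The median change of the list in MT was log2 0.36 after 4 h and 0.05 after 12 h, and in EX 0.02 and 0.33, beside -0.01, -0.06, 0.02 and 0.04 over all tested genes. ELIP lost its call in MT without library 2 or 3 of 0 h or library 1 or 2 of 4 h (0.0631 to 0.12), with library weights (0.159) and with the compared groups alone (0.212), and in EX without library 1 or 3 of either time (0.055 to 0.103). Of other lipocalin-fold genes, VDE and ZEP, whose enzymes convert xanthophylls into each other, were tested and not called in any comparison.

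Of the genes of abscisic acid synthesis, breakdown and signalling, NCED1 rose at both later times in both lines. NCED1, whose enzyme makes the committed precursor of abscisic acid, read 21.1, 10.1 and 21.0 FPKM in MT at 0 h and 21.2, 23.1 and 15.9 in EX at 0 h. At 4 h it read 88.4, 136.9 and 94.0 FPKM in MT and 158.01, 187.0 and 194 in EX. At 12 h it read 149.2, 153.8 and 144.02 FPKM in MT and 157.2, 131.1 and 140.9 in EX.

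The rise of NCED1 was log2 2.59 and 3.10 in MT at 4 h and 12 h, and 3.11 and 2.79 in EX, with limma adjusted p from 5.74e-07 to 4.95e-06. Of the 16 tested genes of this list, MT had 2 called higher and 1 lower after 4 h and 3 and 2 after 12 h, and EX had 3 and 2 after 4 h and 3 and 1 after 12 h. The shares called over all tested genes were 14.2% and 21.2% in MT and 11.3% and 16.6% in EX, so the 3 of 16 in MT after 4 h lay near the background. The medians of the list in these comparisons were log2 0.01, -0.09, 0.07 and 0.14. The largest falls among called genes were those of UGT75C1, an abscisic acid glucosyltransferase gene, in MT at 4 h (log2 -0.78, limma adjusted p = 0.0491) and of the aldehyde oxidase gene AO3 in MT at 12 h (log2 -1.91, limma adjusted p = 0.0411). In EX they were those of CYP707A2, an abscisic acid hydroxylase gene, at 4 h (log2 -1.96, limma adjusted p = 0.0431) and 12 h (log2 -2.08, limma adjusted p = 0.0253). The call of UGT75C1 was lost without library 1 or 3 of MT at 0 h or any 1 library of MT at 4 h (0.0534 to 0.191), with the replicate block (0.0656), a pseudocount of 0.1 (0.0501), no filter (0.0636), library weights (0.0997) or the compared groups alone (0.268), and without both libraries that stood apart (0.425). That of AO3 was lost without library 1 or 3 of MT at 0 h or any 1 library of MT at 12 h (0.082 to 0.193), with the replicate block (0.0523), a pseudocount of 0.1 (0.061), no filter (0.0574) or the compared groups alone (0.181), and without both libraries that stood apart (0.179). Those of CYP707A2 were lost without library 1 or 3 of EX at 0 h, without any 1 library of EX at 4 h, and without library 1 or 3 of EX at 12 h (0.0733 to 0.191). With the compared groups alone they were lost at 4 h (0.0718) and 12 h (0.065), and with no filter at 4 h (0.0636).

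PP2C-2, a protein phosphatase gene of the family that holds back abscisic acid signalling, was chosen after its values were seen. It rose in EX from 4.09 ± 2.09 FPKM to 37.0 ± 13.3 at 4 h (log2 2.91, limma adjusted p = 0.00492) and 31.1 ± 15.5 at 12 h (log2 2.6, limma adjusted p = 0.00803). In MT it went from 5.91 ± 3.72 to 22.1 ± 16.6 and 18.5 ± 4.14 FPKM and was not called (limma adjusted p = 0.119 and 0.0703). Without library 3 of MT at 4 h the first of these was called (log2 2.29, limma adjusted p = 0.00793). The second was called with library weights (0.0403), with the compared groups alone (0.0479) and without both libraries that stood apart (0.0303).

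**Figure D5:**
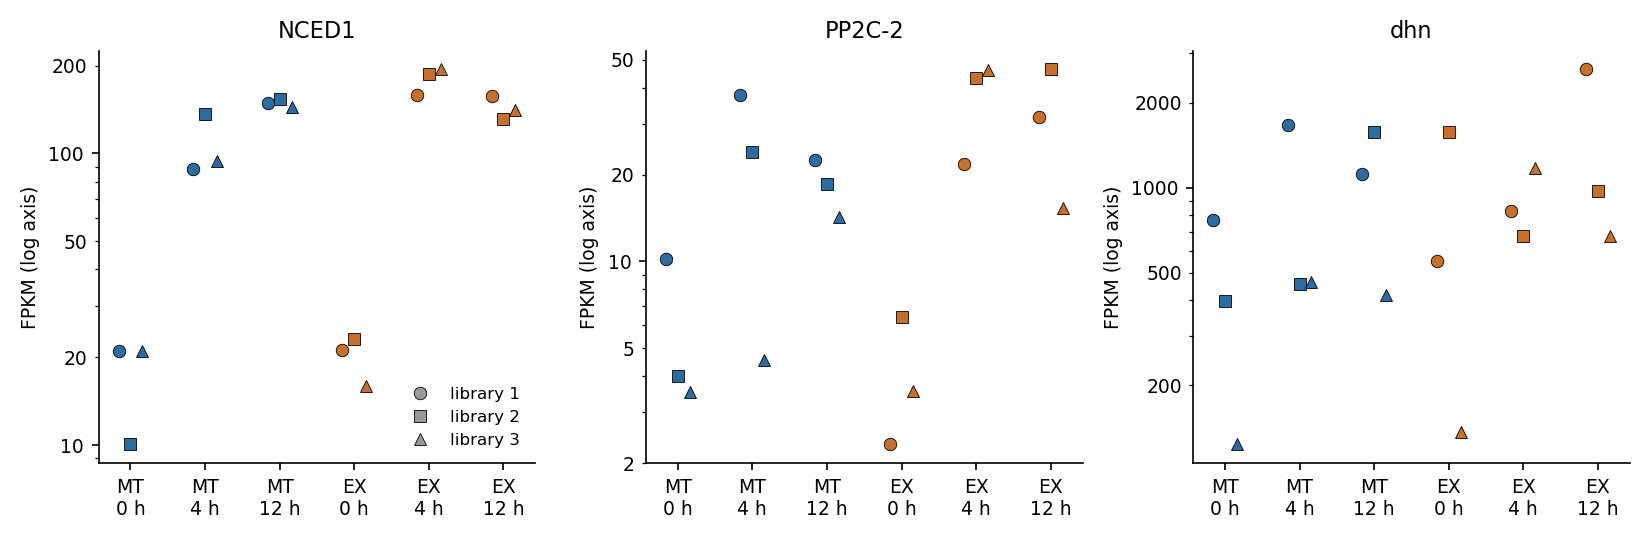
FPKM (log axes) of NCED1 (left), PP2C-2 (middle) and dhn (right) in each library, by line (MT blue, EX orange) and time; marker shapes give the library number. NCED1 lies at 10.1 to 23.1 FPKM at 0 h and 88.4 to 194 later, whereas dhn spans 136.9 to 1576 FPKM within EX at 0 h.

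Across the members as a set, 0 of 6 tested were called by limma between the lines at 0, 4 or 12 h, where 3.17%, 0.297% and 0.134% of all tested genes were called. At an unadjusted limma p under 0.05 there were 0, 0 and 1 of them, the last being ASR1. Of the 17870 tested genes 4249, 2515 and 599 were under that value at these times. Between 4 h and 12 h 0 of 6 were called in MT and 0 in EX (0.554% and 0.201% of all genes), with 1 and 0 at an unadjusted p under 0.05. Over all tested genes 2216 in MT and 1185 in EX were under it. For the line-by-time terms 0 of 6 were called at 4 h and 0 at 12 h (0.101% and 0.0224% of all genes), with 0 at an unadjusted p under 0.05. Over all tested genes 1161 at 4 h and 2940 at 12 h were under it. The 6 include LE25, which passed the filter only through EX at 12 h and adds nothing to these counts as a result. Calls among the members were thus those of TIL and TIL' against 0 h.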

How the data were processed

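Leaf RNA of 18 tomato libraries, 3 for each combination of line and time, was sequenced on a BGI500 protocol after Trizol extraction, per the labels' protocols. The authors deposited FPKM values with 2 decimals in 1 table, per the file headers. It also holds the authors' log2 ratios and their p-values and q-values for pairs of groups. RSEM 1.2.12, DESeq2 1.4.5, Bowtie2 2.2.5 and HISAT2 2.0.4 stand in the submitters' processing notes without roles or a genome build. Gene symbols came from the table and from a reference name table (assembly SLM_r2.1), which held 21649 of the 23348 identifiers and all 7 members. No sequences were used here.

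The 17870 genes that reached a mean of 1 FPKM in any group were transformed to log2(FPKM + 1) and fitted with limma 3.58.1 (R 4.3.3) over all libraries with 6 group means, a mean-variance trend and 11 contrasts. Adjusted p-values are Benjamini-Hochberg values over all tested genes of a comparison, and intervals are 95%. The fit was tested on simulated data. Depth came from single-transcript genes of 350 to 1500 bases, in which 91.4 to 95.9% of low values lay within 0.1 of a whole fragment. Estimated fragments rest on it. Intervals of counting error were not computed.

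Members and gene lists were chosen with earlier results of these data known. All members are named. Likeness names the 3 genes of highest r for TIL, TIL' and Asr4. The lists of other LEA genes and of abscisic acid genes give their largest called rise and fall against 0 h, where there was one. Calls within the marker lists, and of abscisic acid genes between the lines, are not given. Lists were matched by symbol. Counting is not stated to use strand. Alternatives changed the pseudocount, filter, scaling, moderation, weights, libraries and replicate block.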

Additional observations from a re-analysis of the deposited data

How the results depend on the processing

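The 6 tested members gave 66 values over 11 comparisons, of which 8 were called and 58 were not. None of the 8 called values changed sign under any alternative run, and none of the 58 others was called under one. Of the 58, 29 changed sign under at least 1 alternative. With the compared groups alone in the fit, MT had 0 members called at 4 h and 1 at 12 h, and EX had 1 at 4 h, in place of 2 each. With 1 library left out the counts ran from 1 to 2 in MT at 4 h, 1 to 2 in MT at 12 h, 0 to 1 in EX at 4 h and 1 to 2 in EX at 12 h. Fewer libraries leave fewer degrees of freedom in all of these. The replicate number as a block left the count at 2 in each of these 4 comparisons. The numbers did not pair the libraries: same-numbered libraries of 2 groups correlated in their deviations at -0.417 to 0.568, all 3 numbers were over 0.1 in 2 of 15 pairs of groups, and a library matched its own number best in 32 of 90 cases. The block ended the calls of UGT75C1 and AO3 given above.

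Sign changes among uncalled values given above were these. EX minus MT for Asr4 at 4 h (log2 -0.02) was 0.033 after median-of-ratios scaling, 0.32 with library weights, 0.39 without library 1 of MT at 0 h and of MT at 4 h, and -0.23 to 0.39 with 1 library fewer. At 12 h it was -0.065 with library weights and -0.085 to 0.67 with 1 library fewer, and at 0 h -0.40 to 0.79. The change of Asr4 from 0 h ran from -0.028 to 0.72 in MT at 12 h, from -0.39 to 0.80 in EX at 4 h and from -0.15 to 1.04 in EX at 12 h with 1 library fewer. For TIL' it ran from -0.11 to 0.065 between the lines at 12 h and from -0.26 to 0.0023 between 4 h and 12 h in EX. For TIL it ran from -0.019 to 0.13 between 4 h and 12 h in EX, and its line-by-time terms from -0.15 to 0.065 at 4 h and -0.17 to 0.049 at 12 h. The scaling moved the median of all genes by at most 0.106 log2 units, in the line-by-time term at 12 h. Depth limits ASR3 and LE25, whose values rest on 0 to 9 and 0 to 70 estimated fragments.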
